A study of Fukomys damarensis and Heterocephalus glaber and Cavia porcellus with 28 samples.

Results

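Genes of the p53 pathway were followed across heart and liver of 4 rodents: the gene of p53 itself, its inhibitors Mdm2 and Mdm4, and targets that act in cell cycle arrest, stress defence, apoptosis and autophagy. The set was listed by symbol as Trp53, Mdm2, Mdm4, Cdkn1a, Ccng1, Trp53inp1, Trp53inp2, Bbc3, Bax and Sesn1, and 9 of these 10 members were matched among the 13928 genes of each table. Bbc3, which encodes the BH3-only protein PUMA, was not matched and is not analysed here. All 9 matched members passed the filter on low values in both tissues. The set was selected on a measured contrast, because Trp53inp2 and Ccng1 stood out between mole-rats and outgroups in heart. Heart values of that contrast are therefore given for members as a description with no p-value. Where members past the thresholds are counted for it, nothing is read from the count.

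The study compared gene expression by sequencing total RNA, cleared of ribosomal RNA, in 4 species: naked and Damaraland mole-rats, guinea pigs and mice. The first pair are subterranean African mole-rats and the second pair serve as outgroups. Heart came from 3 naked mole-rats of 13 to 17 months, 5 Damaraland mole-rats of 36 to 48 months, 3 guinea pigs of 2.3 months and 3 mice of 2 months. Liver came from 4, 5, 3 and 2 animals of the same species and ages. No strain, treatment or transgene is labelled, and every animal was male except 1 female, which gave Damaraland liver replicate 4. In that liver 4 of 9 members (Mdm2, Mdm4, Ccng1 and Sesn1) lay outside the range of the 4 male Damaraland livers, as did 36% of all genes tested in liver. Of 18 animals 10 gave both tissues, so liver is not a set of independent animals, and for 1 Damaraland animal the labels give different ages in its heart and liver. Species, age and the transcript reference behind each species' reads cannot be told apart in this design.

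p53 is a transcription factor that is stabilised by DNA damage and other stress. Its protein is kept low by MDM2, a ubiquitin ligase that p53 itself induces, and by the related MDM4, which holds p53 inactive. Active p53 raises genes that stop the cell cycle, limit oxidative stress, open the mitochondrial route of apoptosis or promote autophagy, and most of these genes also have other regulators, so their RNA in a resting tissue is not a readout of p53 alone.

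Values are given as scaled reads, the recovered reads divided by 1 size factor per library. They hold no correction for transcript length, so they compare species for 1 gene and not 1 gene with another. Differences are on the deposited log2-like scale, which compresses low values: a doubling from 10 scaled reads moves it by 0.282 in heart and 0.392 in liver, and a doubling from 1000 by 0.946 and 0.973. A gene is counted as called when limma gave a difference of at least 1 in either direction at a Benjamini-Hochberg adjusted p below 0.05 over all 10667 genes tested in heart or 10887 in liver. The tissues were transformed separately, so levels are compared within a tissue.

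Heart libraries held 4089633 to 26985779 recovered reads and liver libraries 11220505 to 21467939. Naked mole-rat heart replicate 3 was the shallowest. Cardiomyocyte markers (5 of 5 found, none at 0) summed to 428075 to 1577799 scaled reads in heart and 545 to 2977 in liver. Hepatocyte markers (4 of 5 found, none at 0) summed to 878894 to 2872498 in liver. In heart the hepatocyte sum was 10707 to 30684 in naked mole-rats, 1762 to 5137 in Damaraland mole-rats, 420 to 1953 in guinea pigs and 322 to 1131 in mice, and its part in the heart differences was not tested.

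Trp53 (ENSMUSG00000059552) was lower in the Damaraland mole-rat than in the naked mole-rat in both tissues. Heart libraries of the Damaraland mole-rat held 90.8, 41.5, 43.8, 44.6 and 54.6 scaled reads of Trp53, and those of the naked mole-rat 132, 143 and 267. The guinea pig had 328, 235 and 240 and the mouse 193, 224 and 198. Every Damaraland heart lay below every heart of the other species, while the naked mole-rat range reached across that of the mouse. Between the mole-rats the Trp53 difference in heart was 1.03 ± 0.19 (limma SE, 3 against 5 animals, adjusted p = 0.000143), a ratio of mean scaled reads of 3.28. This call sits at the size threshold: the difference was 0.8 (adjusted p = 0.00091) without naked mole-rat replicate 3, 0.99 with the replicate number as a block, and 0.99 to 1.0 (just under 1) without Damaraland replicate 2, 3 or 4.

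In liver, Trp53 was at 395, 457, 263 and 365 scaled reads in naked mole-rats and at 167, 144, 126, 161 and 138 in Damaraland mole-rats. These ranges did not overlap, and Trp53 was higher in the naked mole-rat by 1.13 ± 0.17 (limma, 4 against 5 animals, adjusted p = 1.26e-05). Guinea pig livers held 350, 293 and 215 and mouse livers 277 and 210, which overlap with the lowest naked mole-rat liver. Averaged over both mole-rats, Trp53 in liver differed from the outgroups by -0.14 ± 0.14 (adjusted p = 0.403), since the naked mole-rat mean of 370 lay above and the Damaraland mean of 147 below the outgroup means of 286 and 244. As everywhere in whole tissue, fewer cells of a type and less RNA per cell cannot be told apart.

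Mdm2 (ENSMUSG00000020184), the ubiquitin ligase that degrades p53, was nearly absent from naked mole-rat liver and low in its heart. In liver the 4 naked mole-rats held 4.97, 5.53, 3.39 and 4.36 scaled reads, which were 4 to 6 recovered reads in each library. Damaraland livers held 441, 380, 411, 456 and 346, guinea pig livers 436, 324 and 357, and mouse livers 398 and 541. The other 3 species overlapped one another, and their mean levels were 89.2-fold, 81.6-fold and 103-fold that of the naked mole-rat in the same order. Mdm2 was lower in naked than in Damaraland mole-rat liver (difference -3.82 ± 0.14 on the deposited scale, 4 against 5 animals, limma adjusted p = 2.2e-13).

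In heart, too, the naked mole-rat was the lowest species for Mdm2. Naked mole-rat hearts held 45.7, 44.8 and 51.9 scaled reads, from 54, 69 and 14 recovered reads. Damaraland hearts held 654, 592, 668, 415 and 467, guinea pig hearts 476, 660 and 404 and mouse hearts 1041, 1095 and 1081. No naked mole-rat heart came near another species, and the mouse hearts stood above all others. The naked mole-rat was lower than the Damaraland mole-rat (difference -2.45 ± 0.17, 3 against 5 animals, limma adjusted p = 2.7e-09), an 11.8-fold ratio of means. In heart the guinea pig was below the mouse (difference -0.98 ± 0.19, adjusted p = 0.000281), just under the size threshold, and it was called without guinea pig replicate 2 (-1.16).

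The liver call for Mdm2 between both mole-rats and both outgroups (-1.94 ± 0.12, limma adjusted p = 2.33e-10) was carried by 1 mole-rat. The Damaraland mole-rat differed from the guinea pig by 0.12 ± 0.15 (adjusted p = 0.497) and from the mouse by -0.18 ± 0.17 (adjusted p = 0.369). Near absence in 1 species was seen for few genes. Of 6356 liver genes with a mean of at least 100 scaled reads in each of the other 3 species, 52 (0.818%), Mdm2 among them, had a mean below 10 in the naked mole-rat. The same count was 14 of 6302 for the Damaraland mole-rat, 37 of 6322 for the guinea pig and 43 of 6413 for the mouse. Whether the reference used for the naked mole-rat covers the Mdm2 transcript was not tested.

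Mdm4 (ENSMUSG00000054387), the second inhibitor, did not follow Mdm2. Its liver level was 129, 113, 135 and 126 scaled reads in naked mole-rats and 133, 156, 187, 116 and 309 in Damaraland mole-rats. Guinea pig livers held 137, 369 and 120, and mouse livers 649 and 494. Both mouse livers lay above all other livers, which overlapped one another. Mdm4 was lower in guinea pig than in mouse liver (difference -1.44 ± 0.35, 3 against 2 animals, limma adjusted p = 0.00214). The mole-rat average was below the outgroups by just less than the size threshold (-1.0 ± 0.22, adjusted p = 0.000669) and was not called. With single libraries left out it lay on either side of the size threshold, from -0.78 without guinea pig replicate 2 to -1.13 without guinea pig replicate 3, and it was called with voom on recovered reads (-1.14).

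In heart, Mdm4 was at 303, 330 and 363 scaled reads in naked mole-rats, 230, 137, 206, 327 and 116 in Damaraland mole-rats, 119, 154 and 78.8 in guinea pigs and 506, 324 and 337 in mice. The naked mole-rat and mouse ranges overlapped at the top and the guinea pig lay lowest. The guinea pig was below the mouse (-1.30 ± 0.25, limma adjusted p = 0.0003), and between the mole-rats the difference of 0.61 ± 0.22 (adjusted p = 0.0265) stayed under the size threshold.

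**Figure D1:**
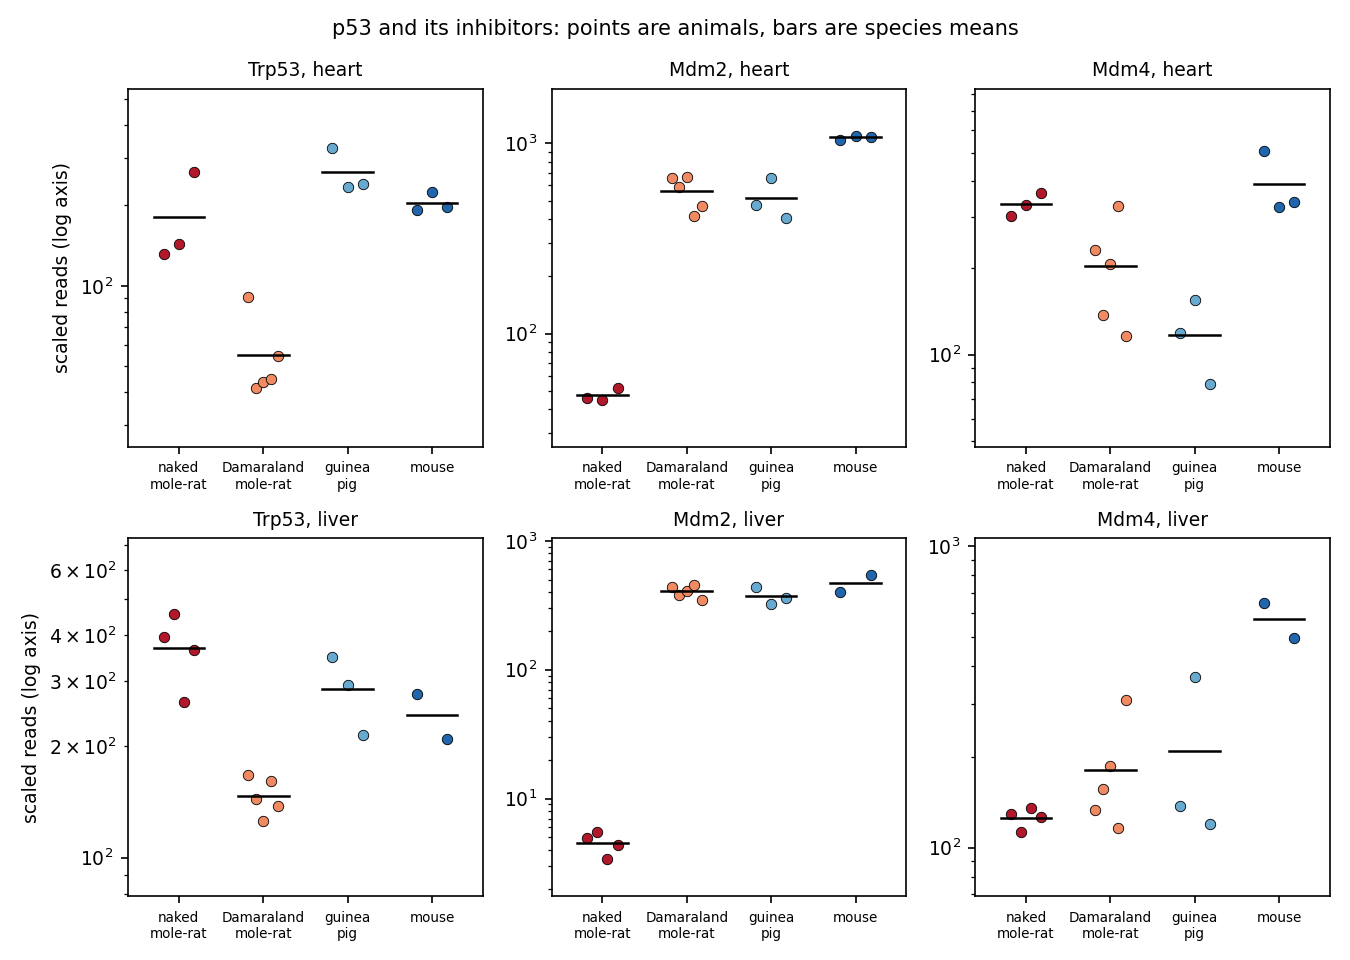
Scaled reads (log axis) of Trp53, Mdm2 and Mdm4 in each heart (top) and liver (bottom), with 1 point per animal and a bar at the mean of each species. The 4 naked mole-rat livers held 3.39 to 5.53 scaled reads of Mdm2 and all other livers at least 324, while Trp53 was lowest in the Damaraland mole-rat.

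Cdkn1a (ENSMUSG00000023067) encodes p21, the cyclin-dependent kinase inhibitor through which p53 stops the cell cycle. In liver it was higher in both mole-rats than in both outgroups. Naked mole-rat livers held 232, 216, 502 and 381 scaled reads and Damaraland livers 331, 193, 489, 322 and 142. Guinea pig livers held 62.9, 117 and 53.6, and mouse livers 28.3 and 37. All 9 mole-rat livers exceeded all 5 outgroup livers, although the lowest Damaraland liver and the highest guinea pig liver were close. Cdkn1a in liver rose in the mole-rats against the outgroups by 1.96 ± 0.25 (limma, 9 against 5 animals, adjusted p = 1.9e-06), and it was called higher in each of the 4 pairings of a mole-rat species with an outgroup species. Ratios of mean scaled reads were 4.27 and 10.2 for the naked mole-rat over guinea pig and mouse, and 3.79 and 9.05 for the Damaraland mole-rat.

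Heart did not repeat that order. Cdkn1a was at 262, 321 and 115 scaled reads in naked mole-rat hearts and at 1502, 1406, 1403, 965 and 926 in Damaraland hearts. Guinea pig hearts held 654, 752 and 1598 and mouse hearts 386, 292 and 403. Damaraland and guinea pig hearts were high, naked mole-rat and mouse hearts were low, and each pair overlapped. The naked mole-rat was below the Damaraland mole-rat (-2.14 ± 0.28, limma adjusted p = 4.52e-06), with no overlap. The guinea pig was above the mouse by 1.21 ± 0.31 (adjusted p = 0.00286), a call that rested on guinea pig replicate 3: without it the difference was 0.84 (adjusted p = 0.0223). The average over both mole-rats was -0.10 ± 0.21 from the outgroups.

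Ccng1 (ENSMUSG00000020326) encodes cyclin G1, a strongly p53-induced protein that brings the phosphatase PP2A to MDM2. Its heart contrast helped choose the set and is described only. Mouse hearts held 20765, 20178 and 20852 scaled reads and guinea pig hearts 5614, 4656 and 3749. Damaraland hearts held 1046, 786, 759, 468 and 551, and naked mole-rat hearts 359, 304 and 656. The mouse was thus 46.9-fold above the naked mole-rat and 28.5-fold above the Damaraland mole-rat by mean scaled reads, and the mole-rat average lay below the outgroup average (-3.99 ± 0.18 on the deposited scale). Only the mole-rats overlapped.

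Other contrasts of Ccng1 were tested, although those in heart use the same libraries as the contrast that helped choose the set. Within the outgroups the guinea pig heart was below the mouse heart (-2.14 ± 0.27, limma adjusted p = 3.34e-06), a 4.41-fold ratio. Within the mole-rats the heart difference of -0.64 ± 0.24 (adjusted p = 0.0268) was not called. Liver showed a far narrower spread: 389, 446, 185 and 212 scaled reads in naked mole-rats, 415, 431, 455, 462 and 322 in Damaraland mole-rats, 693, 474 and 590 in guinea pigs, and 759 and 655 in mice. Every mole-rat liver lay below every outgroup liver, but the difference of -0.82 ± 0.18 (limma, 9 against 5 animals, adjusted p = 0.000586) did not reach the size threshold.

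Sesn1 (ENSMUSG00000038332) encodes sestrin 1, a p53-induced protein that restrains mTORC1 and limits oxidative stress. Its hearts ran from low to high in the order Damaraland mole-rat (280, 422, 293, 443 and 239 scaled reads), naked mole-rat (449, 613 and 959), guinea pig (1015, 1073 and 1004) and mouse (1496, 1459 and 2140). No neighbouring ranges in that order overlapped. Of the differences between neighbours, the naked mole-rat over the Damaraland mole-rat was 0.84 ± 0.22 (limma adjusted p = 0.00312) and guinea pig minus mouse was -0.66 ± 0.24 (adjusted p = 0.0278), both under the size threshold. Without naked mole-rat replicate 1 the first of these reached 1.07 and was called. In liver Sesn1 was nearly level: 151, 200, 192 and 146 in naked mole-rats, 121, 208, 174, 220 and 151 in Damaraland mole-rats, 255, 181 and 195 in guinea pigs, and 195 and 193 in mice. All 4 ranges overlapped, and the mole-rats differed from the outgroups by -0.19 ± 0.14 (adjusted p = 0.223).

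Bax (ENSMUSG00000003873), the pore-forming protein of the mitochondrial route of apoptosis, was high in a single group, the guinea pig livers. These held 8665, 4778 and 8422 scaled reads. Naked mole-rat livers held 126, 106, 179 and 193, Damaraland livers 309, 217, 263, 299 and 227, and mouse livers 283 and 320. The guinea pig mean was 48.2-fold, 27.7-fold and 24.2-fold that of the other species, with no overlap. Bax was higher in guinea pig than in mouse liver by 4.38 ± 0.26 (limma, 3 against 2 animals, adjusted p = 3.26e-10).

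Since the guinea pig counts among the outgroups, Bax was also called lower in mole-rat liver on average (-2.72 ± 0.16, limma adjusted p = 1.9e-10). Against the mouse the difference was -0.88 ± 0.25 for the naked mole-rat (adjusted p = 0.00494) and -0.18 ± 0.24 for the Damaraland mole-rat (adjusted p = 0.516), neither called. Hearts of the guinea pig did not stand apart in Bax, at 192, 353 and 191 scaled reads beside 187, 218 and 197 in the mouse. Naked mole-rat hearts held 129, 152 and 48.2 and Damaraland hearts 87.3, 124, 138, 76.9 and 130, all below the outgroups. The lowest of these, naked mole-rat replicate 3, rests on 13 reads. Guinea pig minus mouse in heart was 0.18 ± 0.24 (adjusted p = 0.541).

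**Figure D2:**
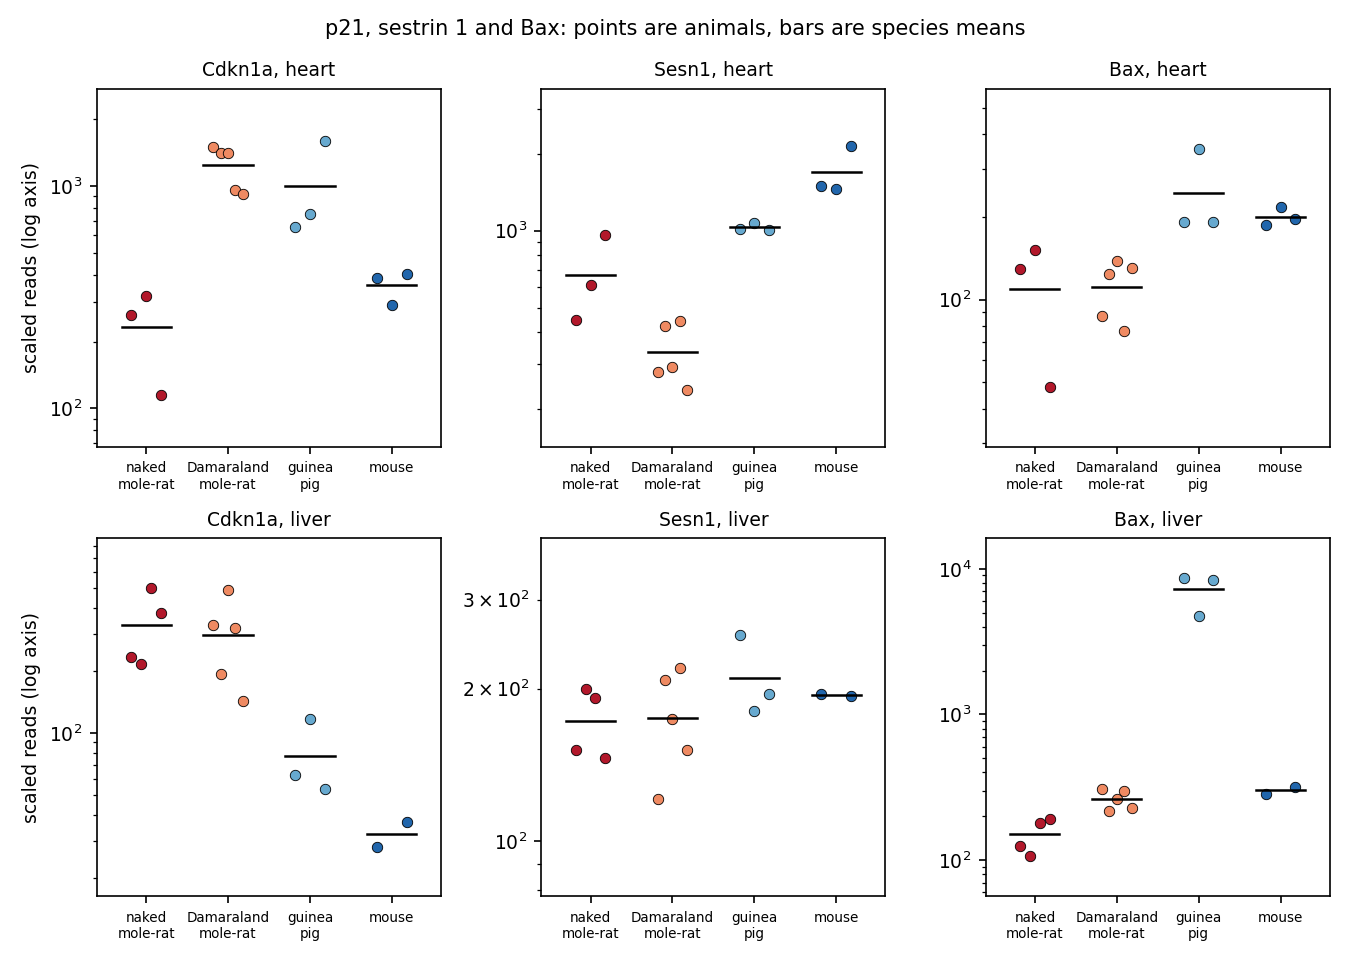
Scaled reads (log axis) of Cdkn1a, Sesn1 and Bax in each heart (top) and liver (bottom), with 1 point per animal and a bar at the mean of each species. All 9 mole-rat livers lie above all outgroup livers for Cdkn1a, and the guinea pig livers, at 4778 to 8665, stand apart for Bax.

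Trp53inp2 (ENSMUSG00000038375) is the relative of Trp53inp1, which is itself a p53 target, and its product binds Atg8 proteins and promotes the formation of autophagosomes. Its heart contrast also helped choose the set. Mouse hearts held 16096, 17148 and 17486 scaled reads, guinea pig hearts 2422, 1633 and 1829, naked mole-rat hearts 1074, 586 and 207 and Damaraland hearts 310, 98.1, 79.3, 76 and 64. The mole-rat average lay below the outgroup average (-4.15 ± 0.28), and the mouse mean was 135-fold the Damaraland mean. The mole-rats overlapped each other and no outgroup heart.

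Liver, which did not choose the set, had the same order of species for Trp53inp2. Mouse livers held 3578 and 4505 scaled reads and guinea pig livers 506, 373 and 369. Naked mole-rat livers held 100, 111, 113 and 105 and Damaraland livers 35.6, 26.7, 42.9, 44.2 and 44.6. None of the 4 liver ranges overlapped. Trp53inp2 was lower in mole-rat liver than in the outgroups (-3.73 ± 0.12, limma, 9 against 5 animals, adjusted p = 9.63e-14) and was called lower in all 4 pairings. The comparison shares 10 animals with that in heart, so this is a second tissue and not a second set of animals.

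Within each pair of species Trp53inp2 differed as well, although the heart tests use the same libraries as the contrast that helped choose the set. The guinea pig was below the mouse in heart (-3.07 ± 0.41, limma adjusted p = 7.78e-06) and in liver (-3.17 ± 0.19, adjusted p = 4.12e-10). The naked mole-rat was above the Damaraland mole-rat by 1.73 ± 0.37 in heart (adjusted p = 0.000662), although naked mole-rat replicate 3 at 207 fell below Damaraland replicate 1 at 310. In liver the same difference was 0.99 ± 0.14 (adjusted p = 7.97e-06), just under the size threshold. A fit to the recovered reads with voom gave 1.49 there and called it.

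Trp53inp1 (ENSMUSG00000028211), a direct p53 target whose product also binds Atg8 proteins, showed no such order. Its hearts held 399, 325 and 322 scaled reads in naked mole-rats, 368, 336, 367, 908 and 331 in Damaraland mole-rats, 290, 275 and 237 in guinea pigs and 340, 272 and 306 in mice. All hearts lay close together apart from Damaraland replicate 4 at 908, and no heart contrast that could be tested was called. In liver the naked mole-rat was low, at 1015, 836, 796 and 293, beside 1393, 1491, 1643, 2605 and 4266 in the Damaraland mole-rat. Guinea pig livers held 2401, 1651 and 2391 and mouse livers 1267 and 1266. Trp53inp1 was lower in naked than in Damaraland mole-rat liver (-1.57 ± 0.33, limma adjusted p = 0.000452), with no overlap.

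**Figure D3:**
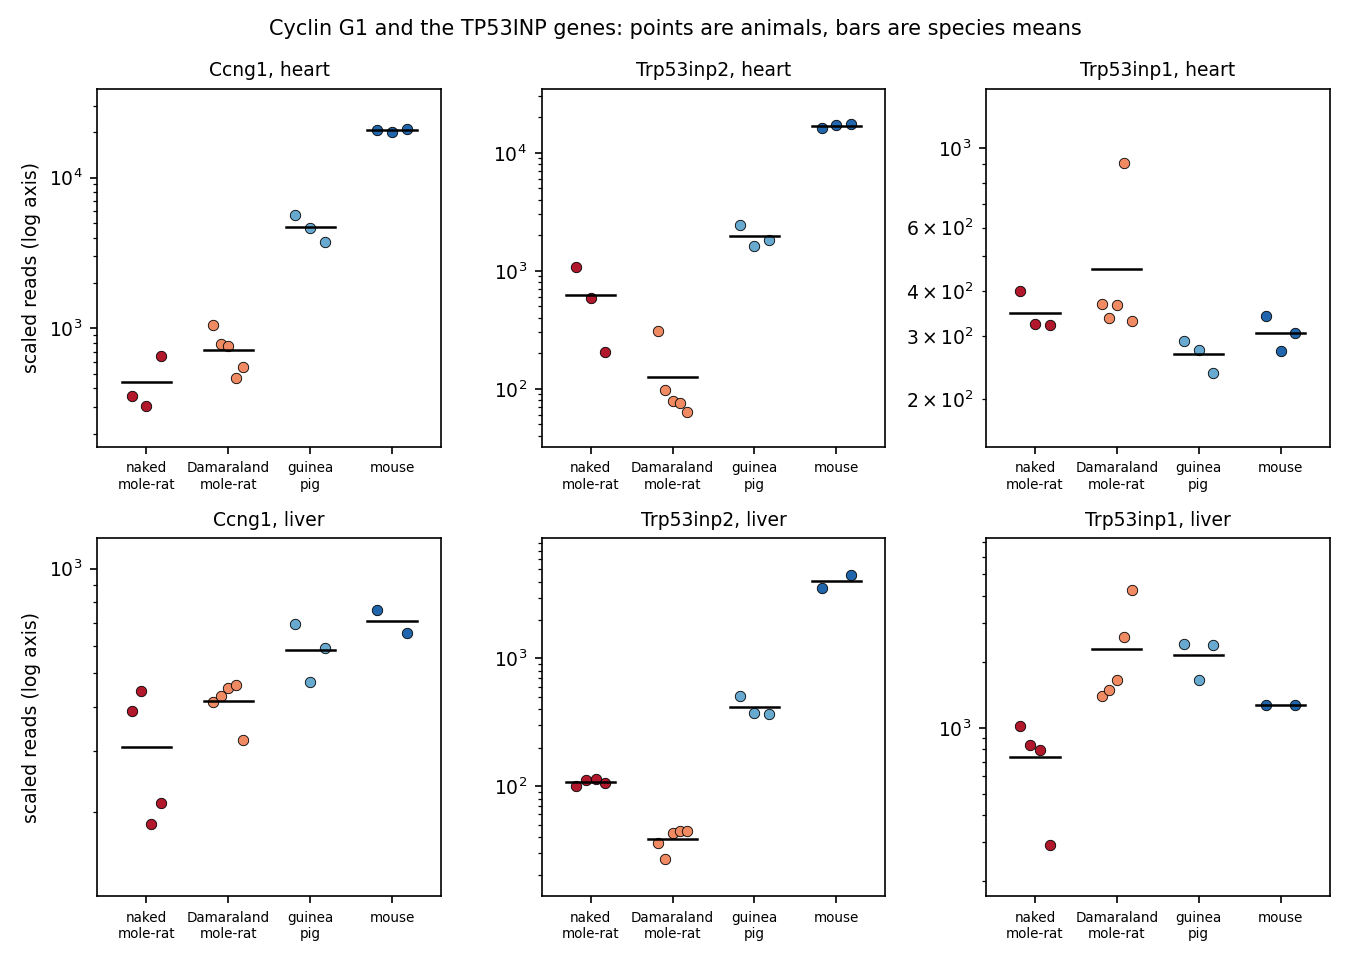
Scaled reads (log axis) of Ccng1, Trp53inp2 and Trp53inp1 in each heart (top) and liver (bottom), with 1 point per animal and a bar at the mean of each species. Trp53inp2 runs from mouse down to Damaraland mole-rat in both tissues, whereas Ccng1 spans 304 to 20852 in heart but 185 to 759 in liver.

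The number of members called in each comparison is set here beside the share of all genes tested that were called. Between mole-rats and outgroups in liver 1 of 9 members was called higher (Cdkn1a) and 3 lower (Mdm2, Bax and Trp53inp2), where 15.1% of all genes tested were called higher and 13% lower. In heart 4 of 9 were past both thresholds on the lower side (Mdm2, Ccng1, Sesn1 and Trp53inp2) and none on the higher, beside 12.6% and 10.8% of all genes, and nothing is read from this count because the contrast chose the set. With 1 sign in all 4 pairings, liver had 1 member higher (Cdkn1a) and 1 lower (Trp53inp2), against 3.42% and 2.87% of genes. In heart the same count was 2 on the lower side (Ccng1 and Trp53inp2), where 2.62% of all genes were lower and 2.06% higher, and nothing is read from it either, since these 2 genes chose the set.

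Between naked and Damaraland mole-rats in heart 2 members were called higher (Trp53 and Trp53inp2) and 2 lower (Mdm2 and Cdkn1a), beside 14.2% and 15.2% of all genes. In liver the same comparison called 1 higher (Trp53) and 2 lower (Mdm2 and Trp53inp1), beside 16.6% and 17.6%. Trp53 was thus higher and Mdm2 lower in the naked than in the Damaraland mole-rat in both tissues. Between guinea pig and mouse 1 member was higher in heart (Cdkn1a) and 3 lower (Mdm4, Ccng1 and Trp53inp2), beside 15.2% and 16.9%. In liver 1 was higher (Bax) and 2 lower (Mdm4 and Trp53inp2), beside 18.8% and 18.4%. The heart counts of this paragraph include Trp53inp2 and, between guinea pig and mouse, Ccng1. They use the libraries by which these genes chose the set, so nothing is read from the heart counts. The median difference of the 9 members was -0.82 between mole-rats and outgroups in liver, where the median of all genes was 0.02. This median is the value of Ccng1, and the lowest of the 9 was Trp53inp2 (-3.73). Since these 2 genes chose the set by the same contrast in heart, nothing is read from the median.

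**Figure D4:**
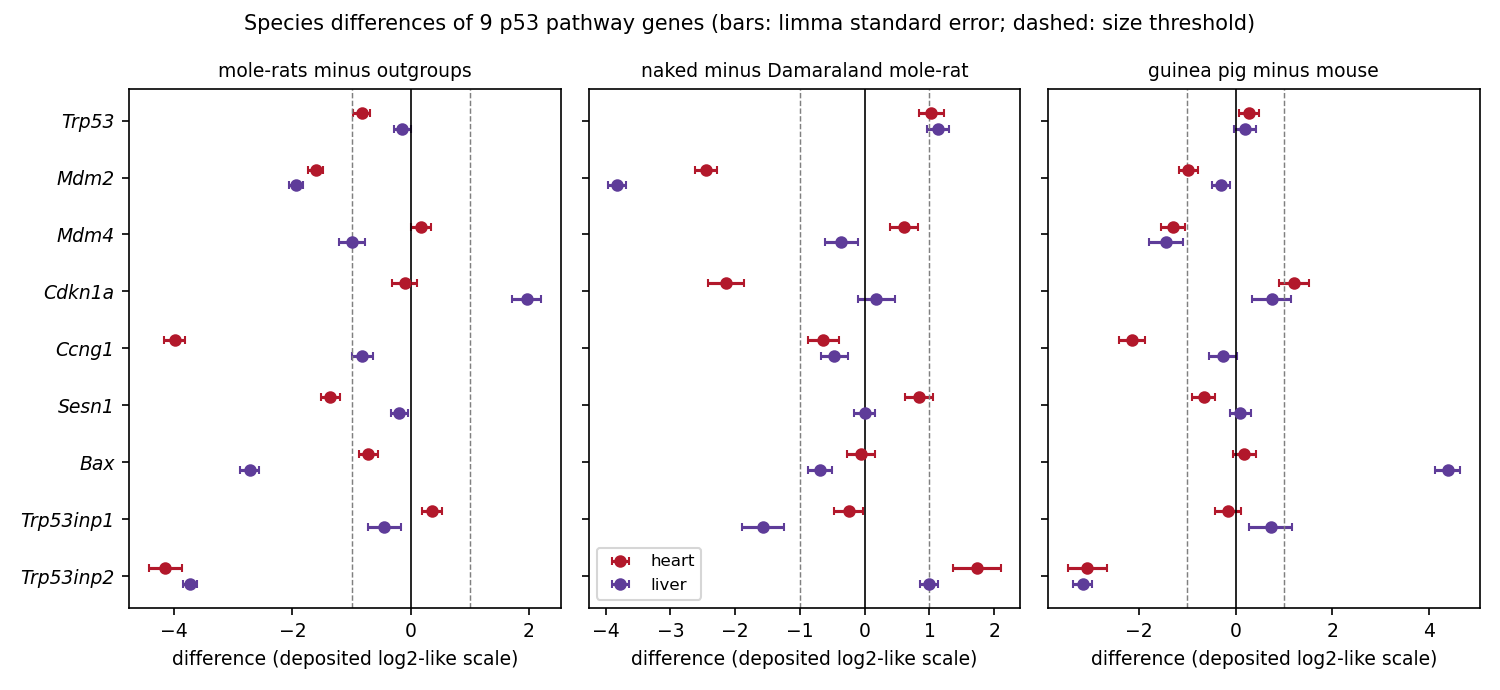
Differences of the 9 members on the deposited log2-like scale, with 1 panel for each comparison, heart in red and liver in purple, limma standard errors as bars and the size threshold of 1 as dashed lines. Heart values of the left panel are descriptive. Mdm2 lies at -2.45 and -3.82 in naked minus Damaraland mole-rat, and Bax in liver at 4.38 in guinea pig minus mouse.

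A wider list of 69 p53 pathway genes placed these members among their neighbours. Of the 69 genes 63 were in the tables, and 57 were tested in heart and 59 in liver. Between mole-rats and outgroups 3 were called higher and 9 lower in heart, and 6 higher and 11 lower in liver. The list median was -0.15 in heart and 0.19 in liver, where all genes had -0.01 and 0.02. Between the mole-rats 10 genes of the list were higher and 6 lower in the naked mole-rat in heart, and 10 higher and 7 lower in liver. Between guinea pig and mouse 4 were higher (Plk2, Siva1, Phlda3 and Sesn2) and 14 lower in heart, and 16 higher and 11 lower in liver, beside the shares of all genes given above. Neither list median between mole-rats and outgroups changed when Ccng2 was given 3 reads in the species whose libraries all held 0. This could not have come out otherwise, since Ccng2 stays below both medians with 0 or 3 reads.

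By role in heart, where 10.8% of all genes were called higher and 12.6% lower, 2 of 11 upstream kinases and modifiers were higher (the checkpoint kinase genes Atm, 1.02, and Chek1, 1.31). Chek1 averaged 143 and 64.2 scaled reads in naked and Damaraland hearts against 16 in guinea pigs and 6.88 in mice. Atm was high in the naked mole-rat alone, at 1962 against 732 in Damaraland mole-rats, 630 in guinea pigs and 458 in mice. In liver Atm was instead highest in the Damaraland mole-rat, at 1961 against 607 in the naked mole-rat. Among cell cycle arrest targets 4 of 7 were lower (Ccng2, Zmat3, Susd6 and Blcap), and none of the 4 was lower in all 4 pairings. Ccng2, Susd6 and Blcap were not lower in naked mole-rats against either outgroup at the thresholds, and Blcap averaged 1084 scaled reads there and 53.6 in Damaraland hearts, against 1102 in guinea pigs and 624 in mice. Zmat3 passed the thresholds against the mouse but not against the guinea pig in both mole-rats. Single calls were Cop1, a p53 ubiquitin ligase gene (-1.30), Ei24 of the apoptosis targets (-1.05) and Ulk1, the kinase that starts autophagy (-1.02). Prkab1 was lower among 9 metabolism and stress defence targets. None of Cop1, Ei24, Ulk1 and Prkab1 was lower in all 4 pairings. By mean scaled reads Cop1 was high in the mouse alone, and Ulk1 and Prkab1 were lowest in the naked mole-rat. The Damaraland mean of Prkab1 was not below that of the guinea pig. Except for Ccng2 the genes of this paragraph were singled out after their values were seen.

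By role in liver, where 15.1% of all genes were called higher and 13% lower, 4 of 8 cell cycle arrest targets were lower (Plk2, Plk3, Ccng2 and Zmat3), again none in all 4 pairings. Plk2 was high in the guinea pig alone, with a mean of 1218 scaled reads against 222 in mice, 207 in naked and 176 in Damaraland mole-rats. Plk3 was high in the mouse alone, at 198 against 17.6 in guinea pigs, 11.1 in naked and 14.9 in Damaraland mole-rats. Apoptosis targets had 2 of 11 higher (Siva1, 1.43, and Trp53i13, 1.72) and 1 lower (the death receptor gene Fas, -1.29). Of 10 metabolism and stress defence targets Ddit4 was higher, and Sesn3 and Gls2 were lower. DNA repair targets had Ddb2 (1.05) and Polk higher and Xpc (-1.30) and Pcna (-1.35) lower, and the other calls were Chek2 (-1.37) and Tap1 lower and Ninj1 (1.02) higher. Of the genes named here only Ddit4, Polk and Tap1 had 1 sign in all 4 pairings. Apart from them and from Ccng2 and Sesn3, the genes of this paragraph were singled out after their values were seen.

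With 1 sign in all 4 pairings, 1 of 57 genes of the wider list was higher and 1 lower in heart, beside 2.06% and 2.62% of all genes. In liver 2 of 59 were higher and 1 lower, beside 3.42% and 2.87%. Polk, a translesion DNA polymerase gene, was higher in both tissues: mean scaled reads in heart were 433 in naked and 553 in Damaraland mole-rats against 39 in guinea pigs and 105 in mice (difference 2.06 ± 0.09, limma adjusted p = 1.59e-11). Its liver means were 289 and 222 against 48.4 and 82.2 (1.55 ± 0.14, adjusted p = 2.22e-08). Every mole-rat library exceeded every outgroup library of its tissue.

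Pcna, the sliding clamp of DNA replication, was lower in mole-rat heart, with means of 147 and 113 against 727 and 482 scaled reads (-1.73 ± 0.16, limma adjusted p = 8.09e-08). The 2 dividing-cell markers found of 4, neither at 0, summed to 38 to 111 scaled reads in mole-rat hearts, 217 to 238 in guinea pig hearts and 56 to 198 in mouse hearts, and their part in the Pcna result was not tested. In liver Ddit4, a stress-induced inhibitor of mTORC1, was higher in mole-rats, with means of 1067 and 1445 against 218 and 108 (2.66 ± 0.26, adjusted p = 1.17e-07). Tap1, the peptide transporter of antigen presentation, was lower, with means of 141 and 110 against 514 and 664 (-1.96 ± 0.13, adjusted p = 9.37e-10).

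**Figure D5:**
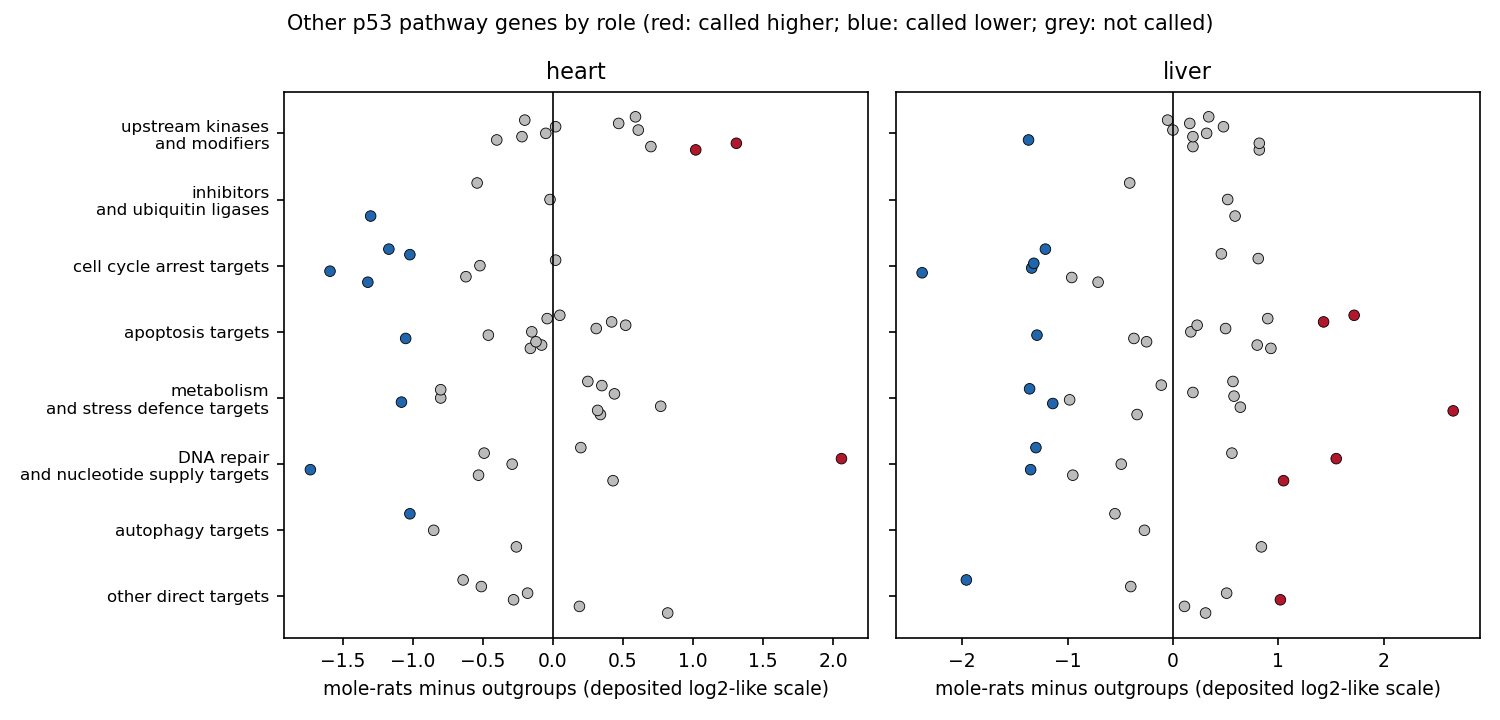
Difference between mole-rats and outgroups on the deposited log2-like scale for each tested gene of the wider p53 pathway list, grouped by role, in heart (left) and liver (right), with 1 point per gene, red where called higher, blue where called lower and grey where not called. The 4 arrest targets called lower in each tissue include none that was lower in all 4 pairings, and the rightmost points are Polk in heart (2.06) and Ddit4 in liver (2.66).

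Relatives of the members gave other patterns. Ccng2, the gene of the second cyclin G, had 0 reads in all 5 Damaraland hearts and all 5 Damaraland livers, which allows up to 3 reads in each library, while the other species averaged 245 to 283 scaled reads in heart and 236 to 354 in liver. Its call against the outgroups was thus carried by the Damaraland mole-rat: naked mole-rat minus guinea pig was -0.07 ± 0.15 in heart (limma adjusted p = 0.716). In liver Mdm2 and Ccng2 therefore each had 1 mole-rat at or near 0 reads and the other at a mean of 236 scaled reads or more.

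Sesn2 and Sesn3, the other sestrin genes, did not share the heart order of Sesn1. Mean scaled reads of Sesn2 in heart were 189 in naked mole-rats, 273 in Damaraland mole-rats, 258 in guinea pigs and 79 in mice, with the guinea pig above the mouse by 1.14 ± 0.18 (limma adjusted p = 4.2e-05). Sesn3 was highest in the mouse, at 848 in heart against 173, 412 and 322, and at 1053 in liver against 108, 119 and 93.9. Its call in mole-rat liver (-1.36 ± 0.19, adjusted p = 7.86e-06) was carried by the mouse: naked and Damaraland mole-rat livers differed from the guinea pig by 0.13 ± 0.26 (adjusted p = 0.685) and 0.26 ± 0.25 (adjusted p = 0.366). Trp73 and Trp63, the other genes of the p53 family, were below the filter in both tissues, and Trp73 averaged at most 2.3 scaled reads in any group.

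Guinea pig liver, where Bax was high, also had other apoptosis targets above the mouse. Of 11 tested, 8 were higher (Apaf1, Fas, Pidd1, Aen, Siva1, Trp53i13, Phlda3 and Steap3) and 2 lower (Perp and Ei24), beside the 18.8% and 18.4% of all genes given above. Phlda3, an inhibitor of AKT, averaged 973 scaled reads in guinea pig and 5.98 in mouse liver (4.90 ± 0.42, limma adjusted p = 3.43e-08). Pidd1, which drives caspase-2 activation, averaged 415 and 24.6 (3.01 ± 0.26, adjusted p = 3.13e-08). Both were also present in mole-rat livers, with means of 132 to 322, so here the mouse was the low species, unlike for Bax. The count of higher targets was 5 without guinea pig replicate 3, and these genes were picked after their values were seen. Leukocyte markers (4 of 4 found, none at 0) summed to 2808 to 4570 in guinea pig and 1293 to 1305 in mouse liver, and endothelial markers (4 of 4, none at 0) to 5739 to 7276 and 2161 to 2721, and their part was not tested.

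Genes of proteins that bind the products of Ccng1 and Trp53inp2 were counted as partners: 5 Atg8 genes, 5 B-prime subunits of PP2A and the kinase gene Gak, all 11 tested. In heart 5 were lower in mole-rats (Gabarapl1, Map1lc3a, Map1lc3b, Ppp2r5c and Ppp2r5e), and in liver 2 were higher (Gabarap and Ppp2r5b) and 6 lower, beside 12.6% of all genes lower in heart and 15.1% higher and 13% lower in liver. Gabarapl1, Ppp2r5c and Ppp2r5e were lower in all 4 heart pairings, and Gabarapl1 in all 4 liver pairings, beside 2.62% and 2.87% of all genes. Map1lc3a and Map1lc3b were not lower in all 4 heart pairings. By mean scaled reads both were lowest in naked mole-rat and highest in mouse hearts. The Damaraland heart mean lay above that of the guinea pig for Map1lc3a and close to it for Map1lc3b. Neither Gabarap nor Ppp2r5b was higher in all 4 liver pairings. Gabarapl1 averaged 227 and 282 scaled reads in naked and Damaraland hearts against 1381 and 1025 in guinea pigs and mice (-1.96 ± 0.13, limma adjusted p = 1.82e-09). Its liver means were 857 and 686 against 4974 and 6438 (-2.81 ± 0.16, adjusted p = 7.62e-11). The median of the partners was -0.85 in heart and -1.05 in liver, where all genes had -0.01 and 0.02.

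Over the 14 heart libraries the deposited values of Ccng1 were most like those of Nudt7 (Pearson r = 0.986), Ankrd52 (0.983) and Dpep1 (0.98) among 10666 other genes. Those of Trp53inp2 were most like Dynlt3 (0.985), Tmem135 (0.984) and Dcaf10 (0.984). The libraries fall into 4 species, so these values describe a shared order of species means. Nudt7, for example, had means of 6.83, 7.25, 8.89 and 9.98 on the deposited scale in naked mole-rat, Damaraland mole-rat, guinea pig and mouse heart, the order of Ccng1. Dynlt3 had 7.79, 7.09, 8.41 and 9.59, the order of Trp53inp2.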

How the data were processed

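Total RNA depleted of ribosomal RNA was sequenced from 14 hearts and 14 livers. The authors deposited variance-stabilised values, close to a log2 scale, in 1 table per tissue, each transformed on its own. In the submitters' processing notes cutadapt, Salmon 013.1, DESeq2 and the build GRCm38 are named without a role. The transcript references of the other species and the assignment of genes across species are not given in the sources used here. Columns of other series (26) were not used. The lowest value, that of 0 reads, was 5.3645 in heart and 4.2893 in liver. Undoing the transform gave scaled reads, which are whole multiples of a fixed step per library, the worth of 1 read, in 100% of values (within 0.001 read). The reads recovered this way give each library's depth.

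Deposited values of each tissue were tested in R 4.3.3 with limma 3.58.1, with a coefficient per species, an empirical Bayes trend and Benjamini-Hochberg adjustment over all genes whose mean was at least 1 above the value of 0 reads. The mole-rat contrast sets the mean of both mole-rat means against the mean of both outgroup means, so species weigh equally. Replicates are separate animals per the labels. The pipeline was tested on simulated data. Symbols were matched for 13921 of 13928 genes.

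Members, gene lists and tests were chosen with earlier results of these data known. Of the wider list 1 gene is not reported here and was left out of its counts. Genes named by rule are all members, Ccng2, Sesn2, Sesn3 and Trp73 as relatives, and partners called in all 4 contrasts. The rule also names up to 6 genes of the wider list per direction and tissue called in all 4. It further names the 3 genes most correlated with Ccng1 and with Trp53inp2 in heart. All other genes of the wider list and other partners were named after their values were seen. Alternatives covered the size threshold, the filter, normalisation, voom on recovered reads, the variance trend, a replicate block and each library left out.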

Additional observations from a re-analysis of the deposited data

Results flagged for a closer look

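In groups of 4 or 5 animals a single library stood apart from the others of its group in 2 of 30 comparisons (27 of member values and 3 of total reads), and chance gives about 1 in 20. Trp53inp1 in Damaraland heart replicate 4 was at 9.95 on the deposited scale, where the other 4 were at 8.68 to 8.8. Trp53inp2 in Damaraland heart replicate 1 was at 8.6, where the other 4 were at 7.06 to 7.41.

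Naked mole-rat and guinea pig differed in opposite directions in the tissues for 2 members, with no overlap between the species in either tissue. Cdkn1a differed by -1.78 ± 0.31 (limma SE) in heart and 1.68 ± 0.33 in liver (naked mole-rat minus guinea pig). Trp53inp1 differed by 0.31 ± 0.26 in heart and -1.6 ± 0.38 in liver. Its heart difference is close to its SE and under the size threshold, so Trp53inp1 is not read as reversed between the tissues. The difference between the tissues was not tested, because the tables were transformed separately. The share of all genes that met the same rule was not counted, so nothing is read from the number of members.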

How the results depend on the processing

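Each count and member difference was recomputed under the alternatives. Dropping the size threshold moved 5 counts by more than 1.5 times: 7 members between the mole-rats in heart and 5 in liver, 4 members lower in all 4 heart contrasts, and 36 genes of the wider list in heart and 42 in liver. It also took the members called from 4 to 6 for mole-rats against outgroups in each tissue and for guinea pig against mouse in heart. The share of all genes called without the size threshold was not counted. These larger counts therefore say nothing particular to the members or the list. Heart counts of mole-rats against outgroups, in all 4 contrasts too, rest on the values that chose the set and say nothing of stability. With each library left out in turn, members called numbered 4 to 4 in heart and 4 to 5 in liver for mole-rats against outgroups, 3 to 5 and 3 to 4 between the mole-rats, and 3 to 5 and 3 to 3 for guinea pig against mouse. The wider list gave 10 to 12 and 14 to 19, all 4 contrasts gave 2 to 2 in both tissues, and the apoptosis targets of guinea pig against mouse liver, a count added after seeing the data, gave 7 to 10. Of 54 member differences, quantile normalisation left 52 the same, centring 52 and voom on recovered reads 48. A tested difference was the same when it kept direction and call. An untested heart difference of mole-rats against outgroups was the same when it shifted by less than the gene's limma standard deviation. Voom moved the heart description of Trp53 from -0.83 to -1.4 and of Mdm2 from -1.61 to -2.21. Differences that changed sign were all uncalled. Bax between the mole-rats in heart was 0.1 with voom and ran from -0.25 to 0.23 with libraries left out, above 0 without naked mole-rat replicate 3. Bax in guinea pig minus mouse heart ran from -0.05 (without guinea pig replicate 2) to 0.3. Cdkn1a between mole-rat livers was -0.02 with the replicate block and ran from -0.02 (without naked mole-rat replicate 3 or Damaraland replicate 5) to 0.37. Sesn1 between mole-rat livers was 0.03 when centred and 0.05 with quantile normalisation, and ran from -0.1 to 0.07, at 0.0 or above without naked mole-rat replicate 1 or 4 or Damaraland replicate 2, 3 or 4. Sesn1 in guinea pig minus mouse liver ran from -0.04 (without guinea pig replicate 1) to 0.17. The cause of these changes was not tested. Replicate numbers do not pair the animals: deviations of same-numbered libraries correlated at -0.261 to 0.301 in heart and -0.232 to 0.15 in liver, and 6 of 12 and 2 of 13 libraries correlated best with their own number. With the replicate block, members called numbered 4, 3 and 4 in heart and 5, 4 and 3 in liver in the order above, and the wider list 11 and 18. It took the call from Trp53 between mole-rat hearts (0.99) and called Mdm4 (-1.03) and Trp53inp2 (1.02) in liver. Depth limits the lowest values: Mdm2 in naked mole-rat liver rests on 4 to 6 reads per library.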
